A study of Mus musculus with 16 samples.

Results

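The genes described here encode the tip link of the hair cell stereocilia and the machinery that turns its pull into a current. They were chosen by name from the known composition of this apparatus, with earlier results of these data known. They comprise 9 of the 36536 genes counted in the series: Cdh23, Pcdh15, Tmc1, Tmc2, Lhfpl5, Tmie, Ush1c, Ush1g and Cib2. All 9 were matched to an Ensembl gene of the deposited tables. Cochleas of mice carrying a Lfng-EGFP bacterial artificial chromosome transgene (strain B6;FVB-Tg(Lfng-EGFP)HM340Gsat/Mmucd) were explanted at postnatal day 0 (P0) or 5 (P5), and kept for 24 hours either in DAPT at 10 µM, which inhibits gamma-secretase and thereby Notch signalling, or in 0.04% DMSO, its vehicle. Dissociated cells were then sorted by GFP, and RNA of the GFP+ and the GFP- fraction was sequenced, which gave 8 groups (2 ages, 2 treatments, 2 fractions) of 2 libraries each. All groups carried the transgene and all were cultured, so that untreated means DMSO here. GFP follows Lfng regulatory sequence, which is active in most but not all supporting cell types, and the study states that cells of low GFP fluorescence, thought to include inner pillar and inner hair cells, were not collected. The comparisons ask which parts of the apparatus responded to DAPT in the GFP+ cells at each age, and how their levels stood against those of the GFP- cells.

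Hair cells are the sensory cells of the cochlea, and their stereocilia are joined in staircase order by fine tip links. A tip link is made of cadherin 23 (Cdh23) at its upper end and protocadherin 15 (Pcdh15) at its lower end. At the lower end sits the transduction channel, whose pore-forming subunits are the transmembrane proteins TMC2, prominent in young hair cells, and TMC1, which persists in mature ones. LHFPL5 couples PCDH15 to the channel, TMIE is essential for the channel to work, and CIB2 is a calcium-binding partner of the TMC proteins. At the upper end harmonin (Ush1c) and SANS (Ush1g) anchor cadherin 23 to the actin core. Mutations in most of these genes cause deafness, several of them as Usher syndrome type I. Supporting cells surround the hair cells, do not carry such bundles, and in the newborn cochlea can turn into hair cells when Notch signalling is blocked.

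Levels are given as CPM (a gene's counts relative to the total of its library, scaled to 1e+06) after normalisation of all 16 libraries together, and levels of different genes are compared only as RPKM, the CPM per kilobase of annotated exonic length. The word called is kept for genes whose fold change exceeded 2 with an adjusted p below 0.01 in edgeR's quasi-likelihood test, and rose and fell are used only of these. Gene counts per library ranged from 13755356 to 23637236 in the GFP+ fraction and from 34869184 to 45465324 in the GFP- fraction. Mitochondrial ribosomal RNA took 20.2 to 29.8% of the counts of GFP+ libraries and 0.0441 to 0.109% of those of GFP- libraries. Both libraries of P0 DMSO GFP+ cells stood apart from the 6 other GFP+ libraries: 30639 and 31345 genes had a count in them, against 25651 to 27156, and 7.63 to 8.56% of their records were not uniquely aligned, against 3.95 to 4.45%. Library numbers in the names of the deposited tables also set these 2 libraries, the other GFP+ libraries and the GFP- libraries apart, so that a difference in library preparation or run cannot be told apart from the P0 response to DAPT, from age in GFP+ cells or from the fraction. The labels number the replicates but do not say that they came from separate cultures, and p-values therefore measure the spread between these samples, which may be technical. In bulk samples such as these, fewer cells of a type and less RNA per cell cannot be told apart.

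Promoter windows are shown because several of the genes moved together in P0 GFP+ cells. RefSeq windows of 300 bases (250 before to 50 after the start, from GRCm38.p6) were given for 7 of the 9 genes, and each was found exactly once in the NCBIM37 build used by the counts. Below are a pair of genes that rose with DAPT in P0 GFP+ cells (Cdh23 and Pcdh15, the tip link proper), one more that rose (Lhfpl5) and one that was not called (Tmc1), with coordinates in NCBIM37 and every CANNTG, the E-box core recognised by basic helix-loop-helix factors, in capitals.
Cdh23 (chr10:60159189-60159488, minus strand): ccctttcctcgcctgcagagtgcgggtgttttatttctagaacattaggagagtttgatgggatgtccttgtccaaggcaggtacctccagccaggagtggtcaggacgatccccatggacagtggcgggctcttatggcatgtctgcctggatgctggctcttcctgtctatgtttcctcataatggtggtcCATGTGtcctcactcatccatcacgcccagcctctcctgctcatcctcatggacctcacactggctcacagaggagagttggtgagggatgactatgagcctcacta
Pcdh15 (chr10:73284365-73284664, plus strand): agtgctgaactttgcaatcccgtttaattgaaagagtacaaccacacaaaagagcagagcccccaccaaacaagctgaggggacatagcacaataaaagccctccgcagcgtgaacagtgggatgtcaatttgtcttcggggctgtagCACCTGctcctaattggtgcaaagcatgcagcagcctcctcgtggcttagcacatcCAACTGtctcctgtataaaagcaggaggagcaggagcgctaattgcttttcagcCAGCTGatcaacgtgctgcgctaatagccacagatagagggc
Lhfpl5 (chr17:28712414-28712713, plus strand): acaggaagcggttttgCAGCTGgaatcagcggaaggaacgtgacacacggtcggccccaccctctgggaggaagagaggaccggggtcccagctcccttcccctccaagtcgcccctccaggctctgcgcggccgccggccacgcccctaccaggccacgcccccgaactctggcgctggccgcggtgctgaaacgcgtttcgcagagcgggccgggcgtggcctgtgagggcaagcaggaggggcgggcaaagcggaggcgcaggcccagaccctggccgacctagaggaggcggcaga
Tmc1 (chr19:21028643-21028942, minus strand): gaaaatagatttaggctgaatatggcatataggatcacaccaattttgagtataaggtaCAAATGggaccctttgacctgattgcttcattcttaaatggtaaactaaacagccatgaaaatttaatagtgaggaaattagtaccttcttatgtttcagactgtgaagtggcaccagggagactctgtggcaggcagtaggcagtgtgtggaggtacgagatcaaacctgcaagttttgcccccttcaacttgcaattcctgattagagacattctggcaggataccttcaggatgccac
The RefSeq start of Pcdh15 lies 722525 bases downstream of the start in the annotation that matches the counts, and those of the other 6 genes lie within 40 bases. CANNTG reads the same on both strands, and it was present in 6 of the 7 windows, beside 72.31% of all 32851 windows. Cib2, which also rose, has none in its window. The longer forms searched on both strands, CAGATG (one E-box form used by ATOH1-type sites, itself a case of CANNTG) and TGGGAA (the core of RBPJ sites), were in 0 of the 7 windows and in 17.15% and 25.56% of all windows. Other E-box forms, such as the CAGCTG in the windows of Pcdh15, Lhfpl5 and Tmie, were not counted apart. The search therefore does not show that ATOH1-type sites are absent. With only 7 windows, a count of 0 does not set these genes apart from all windows. The share of windows with an E-box was near that of all windows.

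With DAPT, 5 of the 9 genes rose in P0 GFP+ cells, beside 4.2% of all 20711 genes tested that were called higher in the same comparison (8.37% in either direction). These were both cadherins of the tip link (Cdh23 12.8-fold and Pcdh15 4.85-fold), the scaffold gene Ush1g (10.1-fold) and, of the channel complex, Lhfpl5 (10.1-fold) and Cib2 (6.03-fold). Tmie and Ush1c were higher by smaller amounts that were not called, and neither of the pore genes Tmc1 and Tmc2 was called. The median log2 fold change of the 9 genes was 2.28, while that of all genes tested was -0.05. In P5 GFP+ cells none of the 9 genes was called.

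**Figure D1:**
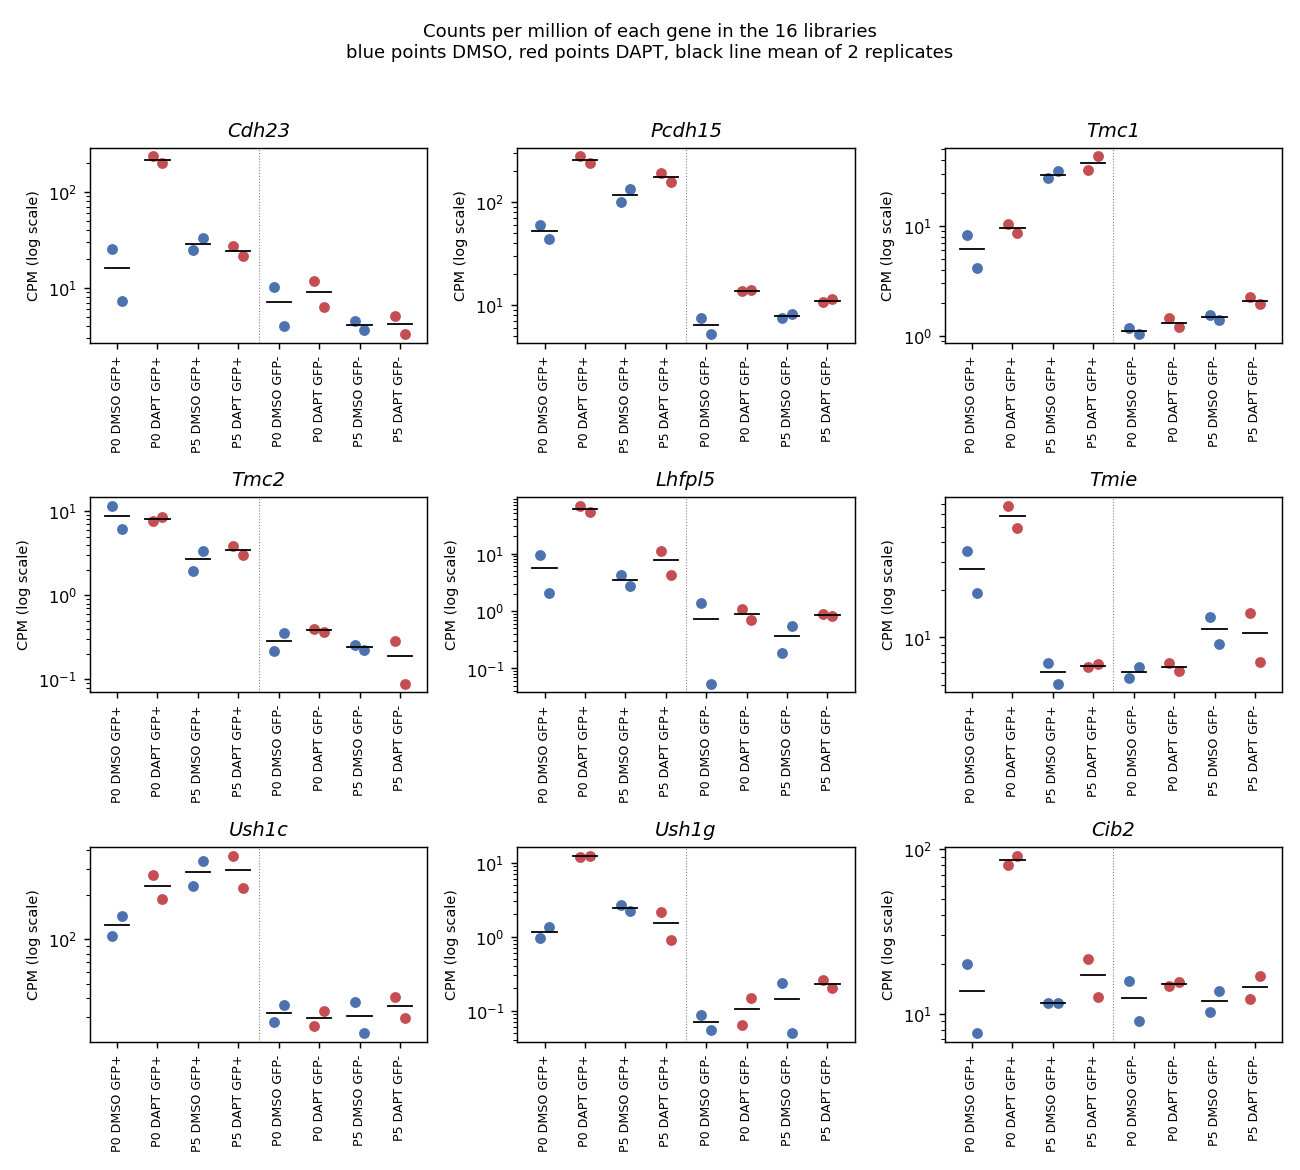
CPM (log scale) of each of the 9 genes in the 16 libraries, by group; points are libraries (blue DMSO, red DAPT) and the black line is the mean of 2 replicates, with GFP+ groups to the left of the dotted line. Both P0 DAPT GFP+ points lie above the 6 other GFP+ libraries for 6 genes, whereas Tmc1 is highest in P5 and Ush1c overlaps with P5.

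Cdh23 had the largest log2 fold change with DAPT at P0. Those of Ush1g (3.34 ± 0.38) and Lhfpl5 (3.33 ± 0.51) were close to it given their SE. Its level was 25.3 and 7.28 CPM in the P0 DMSO GFP+ libraries and 233 and 198 CPM in the P0 DAPT GFP+ libraries. At P5 it was 24.7 and 33.2 CPM in DMSO and 27.4 and 21.4 CPM in DAPT. The P0 DAPT libraries were thus well above all other libraries, and the other 3 GFP+ groups overlapped with each other. The log2 fold change at P0 was 3.68 ± 0.45 (SE; adjusted p = 0.000434, edgeR quasi-likelihood test). Leaving out each library in turn, which always left a group with a lone sample assumed to vary like the others, moved this value between 3.07 and 4.89, and the call held.

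Pcdh15, its partner, was higher to begin with. It stood at 60.4 and 43.7 CPM in P0 DMSO GFP+ cells and at 278 and 241 CPM in P0 DAPT GFP+ cells. In P5 GFP+ cells the levels were 100.4 and 133 CPM in DMSO and 194 and 157 CPM in DAPT. No 2 of these 4 groups overlapped, and the order from low to high was P0 DMSO, P5 DMSO, P5 DAPT, P0 DAPT. At P0 the log2 fold change was 2.28 ± 0.18 (edgeR adjusted p = 3.05e-05), the smallest p of the 9 genes. Per length, Cdh23 at 0.961 ± 0.751 RPKM (SD, n = 2) lay below Pcdh15 at 2.37 ± 0.54 RPKM in P0 DMSO GFP+ cells, and after DAPT the 2 genes overlapped at 12.7 ± 1.5 and 11.8 ± 1.2 RPKM.

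The genes of the upper scaffold differed from each other. Ush1g, which encodes the SANS protein, had only 21 and 27 reads in the P0 DMSO GFP+ libraries (0.962 and 1.37 CPM) and 222 and 241 reads after DAPT (11.9 and 12.5 CPM). Its P5 GFP+ levels were 2.69 and 2.20 CPM in DMSO and 2.18 and 0.891 CPM in DAPT, all of them far below the P0 DAPT libraries. The log2 fold change at P0 was 3.34 ± 0.38 (edgeR adjusted p = 0.000282). Ush1c, which encodes harmonin, was already abundant, with 105 and 144 CPM in P0 DMSO GFP+ cells and 273 and 187 CPM in P0 DAPT GFP+ cells. In P5 GFP+ cells it was 230 and 335 CPM in DMSO and 367 and 221 CPM in DAPT, which overlapped with P0 DAPT. Its log2 fold change at P0 was 0.85 ± 0.20 (edgeR adjusted p = 0.0156), under the fold limit and above the p limit, though Ush1c was called without P0 DMSO replicate 2 and without P0 DAPT replicate 2.

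Among the genes around the channel, Lhfpl5 and Cib2 rose and Tmie was not called. Lhfpl5 was at 9.39 and 2.04 CPM in P0 DMSO GFP+ cells and at 67.1 and 52.4 CPM in P0 DAPT GFP+ cells, while the 4 P5 GFP+ libraries ranged from 2.75 to 11.2 CPM. The log2 fold change at P0 was 3.33 ± 0.51 (edgeR adjusted p = 0.00174). This call was lost when all 8 groups entered the fit (adjusted p = 0.0288), and over the alternatives the adjusted p ranged from 2.01e-08 to that value.

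Cib2 was at 20.0 and 7.64 CPM in P0 DMSO GFP+ cells and at 80.2 and 91.4 CPM after DAPT. In P5 GFP+ cells it was 11.7 and 11.6 CPM in DMSO and 21.6 and 12.7 CPM in DAPT. The log2 fold change at P0 was 2.59 ± 0.36 (edgeR adjusted p = 0.000939). Only the P0 DAPT GFP+ libraries stood out, since Cib2 was about as high in the GFP- fraction (9.07 to 16.9 CPM) as in the other GFP+ groups. Tmie was at 35.0 and 19.1 CPM in P0 DMSO GFP+ cells and at 67.5 and 49.4 CPM in P0 DAPT GFP+ cells, and these groups did not overlap. Its log2 fold change was 1.07 ± 0.28 (edgeR adjusted p = 0.0202). This missed call depended on the setting, since Tmie was called without the filter on low counts (adjusted p = 0.000618), by DESeq2 (0.000827), with the replicate block (0.00135), without P0 DMSO replicate 1 (0.00153) and at an adjusted p limit of 0.05, and over all alternatives the adjusted p reached 0.0873. At P5 it was lower than in any P0 GFP+ library, from 5.12 to 6.91 CPM over the 4 GFP+ libraries.

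The pore genes showed the least response. Tmc1 was at 8.24 and 4.17 CPM in P0 DMSO GFP+ cells and at 10.4 and 8.63 CPM in P0 DAPT GFP+ cells, a log2 difference of 0.58 ± 0.38 (edgeR adjusted p = 0.284). Tmc2 was at 11.5 and 6.21 CPM without DAPT and at 7.69 and 8.63 CPM with it, a log2 difference of -0.16 ± 0.35 (edgeR adjusted p = 0.774). The P0 DAPT values of Tmc2 lay within the range of the DMSO replicates. Without the first P0 DMSO GFP+ replicate the sign for Tmc2 turned, to a log2 difference of 0.39.

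**Figure D2:**
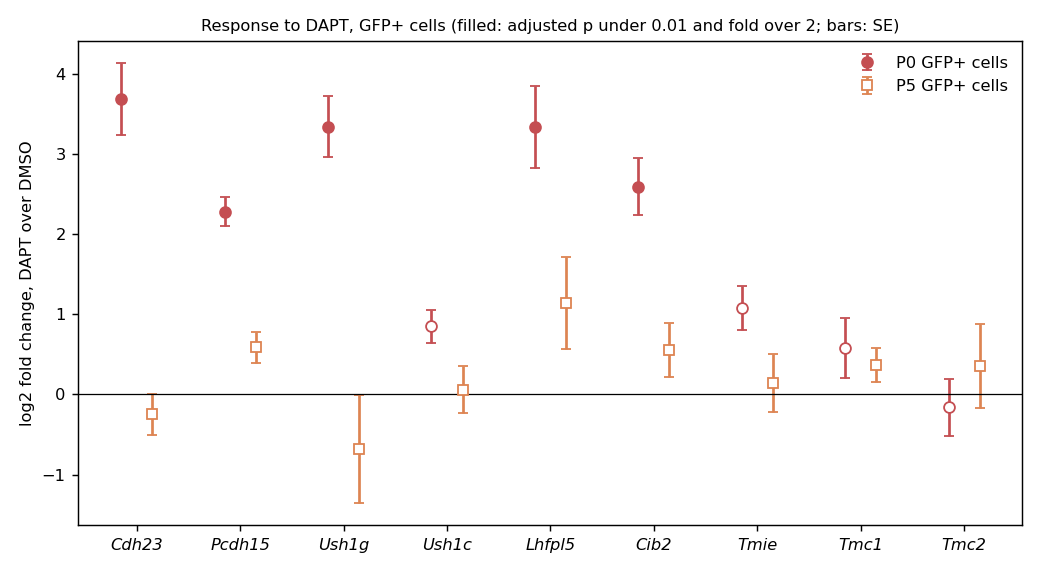
Log2 fold change of DAPT over DMSO for each gene in P0 GFP+ (circles) and P5 GFP+ cells (squares); bars are SE, and filled symbols mark genes called. The 5 filled P0 symbols lie between 2.28 and 3.68, and no P5 symbol is filled.

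The 2 P0 DMSO GFP+ libraries disagreed on several of these genes. Replicate 1 was higher than replicate 2 for 7 of the 9 genes, by 4.61-fold for Lhfpl5, 3.47-fold for Cdh23 and 2.61-fold for Cib2. It was also higher for 13 of 14 hair cell markers, whose summed level was 454 and 319 CPM, with Otof at 61.0 and 10.8 CPM and Myo7a at 29.1 and 6.31 CPM. The part of this difference in the levels of the 9 genes was not tested. The 5 calls in P0 GFP+ cells held without either P0 DMSO replicate. Both P0 DAPT libraries lay above all 6 other GFP+ libraries for 6 of the 9 genes (the 5 that rose and Tmie), beside 15% of 22199 genes. The 6 include the 2 P0 DMSO libraries, and the others are of P5. This count is therefore not a check apart from the P0 comparison, and it mixes treatment with age.

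In P5 GFP+ cells DAPT called none of the 9 genes, and edgeR called no gene of 18754 (0%). At an unadjusted p under 0.05 there was 1 of the 9 genes and 953 genes in all, and DESeq2 called 0 of the 9 and 58 genes in all. The smallest adjusted p belonged to Pcdh15 (log2 difference 0.59 ± 0.20, edgeR adjusted p = 0.914), whose 2 DAPT libraries lay above both DMSO libraries. Lhfpl5 had the largest log2 difference, 1.14 ± 0.58 (edgeR adjusted p = 0.972), with groups of 4.22 and 2.75 CPM in DMSO and 11.2 and 4.19 CPM in DAPT that overlapped. Cdh23 stood at -0.25 ± 0.25 and Ush1g at -0.68 ± 0.67. The calls missed here do not show that the genes stayed the same. The P5 GFP+ replicates also disagreed on mesenchyme markers, which summed to 1066 and 169 CPM in DMSO and 217 and 1029 CPM in DAPT. In P0 GFP+ libraries these sums were 87.5 and 130 CPM in DMSO and 40.1 and 111 CPM in DAPT. The part of this disagreement in the comparisons that use P5 GFP+ libraries was not tested.

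The difference between the ages was tested directly as an interaction in the 4 GFP+ groups. Cdh23 passed, with a response lower at P5 than at P0 by a log2 difference of -3.94 ± 0.63 (edgeR adjusted p = 0.00941), and it was the only one of the 9 genes to do so, beside 1.1% of 22199 genes called. Ush1g (-4.04 ± 0.70, adjusted p = 0.0136) and Pcdh15 (-1.70 ± 0.29, adjusted p = 0.0126) missed the limit in the same edgeR test. For Cib2 the difference was -2.05 ± 0.56 (adjusted p = 0.0786) and for Lhfpl5 -2.21 ± 0.89 (adjusted p = 0.189), with -0.93 ± 0.44 for Tmie and -0.79 ± 0.40 for Ush1c (adjusted p = 0.257 and 0.288). The values of Tmc1 (-0.21 ± 0.44) and Tmc2 (0.51 ± 0.61) were smaller than their SE. The count depended on single libraries, from 0 to 2 genes when each was left out, and no gene was called without P5 DMSO replicate 2, without either P0 DAPT replicate or without P5 DAPT replicate 2. Cdh23 lost its call in these fits, also without P5 DAPT replicate 1 (where Ush1g was called), and also with all 8 groups in the fit, with adjusted p from 2.11e-10 to 0.0216 over all alternatives.

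With age alone, in DMSO, the pore gene Tmc1 and the channel gene Tmie were called. Tmc1 rose from 8.24 and 4.17 CPM at P0 to 27.1 and 31.4 CPM at P5 in GFP+ cells, a log2 fold change of 2.19 ± 0.36 (edgeR adjusted p = 0.00801). Tmc2 was at 11.5 and 6.21 CPM at P0 and at 1.96 and 3.42 CPM at P5, without overlap, but its log2 difference of -1.76 ± 0.50 was not called (edgeR adjusted p = 0.0565). Tmie fell, from 35.0 and 19.1 CPM to 6.91 and 5.12 CPM (log2 fold change -2.21 ± 0.36, edgeR adjusted p = 0.0082). These 2 calls, 1 in each direction, compare with 2.01% of 20844 genes called higher and 1.3% called lower, 3.32% in all. Without P0 DMSO GFP+ replicate 2 Tmc1 was not called (adjusted p = 0.0157, with a range over leave-one-out fits from 0.000193), and without replicate 1 Tmie was not (0.0547, from 0.000357). Pcdh15 (1.13 ± 0.22) and Ush1c (1.14 ± 0.23) were higher at P5 with edgeR adjusted p of 0.0184 and 0.0197, and both were called without P5 DMSO GFP+ replicate 1. Whether library preparation had a part in these age differences cannot be told apart from age.

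Set against each other per length, the levels of the pore genes changed order with age. In the P0 DMSO GFP+ libraries Tmc1 was 0.511 and 0.481 of Tmc2 in RPKM, and with DAPT 0.968 and 0.715. In the P5 GFP+ libraries it was 9.92 and 6.57 times Tmc2 in DMSO and 5.99 and 10.3 times in DAPT. Per length, all 4 P0 libraries thus had more Tmc2 and all 4 P5 libraries more Tmc1. In the P0 DAPT libraries this order rests on the division by length, since they held 195 and 167 reads of Tmc1 and 144 and 167 of Tmc2. The ratio of 0.968 was close to equal levels. The P0 DAPT ratios stayed under those of both P5 groups, and the ratios were not tested. The 8 GFP- libraries also had more Tmc1 than Tmc2, but from 4 to 19 reads of Tmc2 per library.

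**Figure D3:**
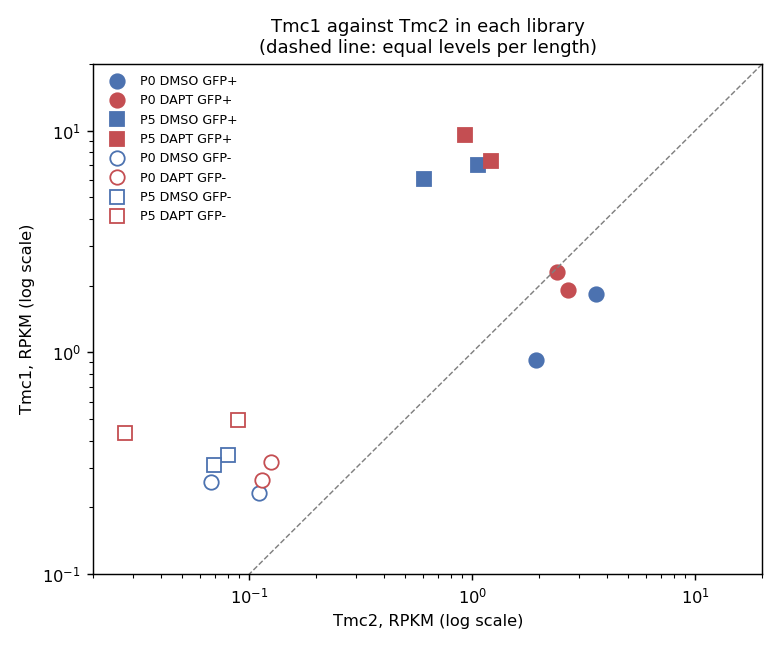
Tmc1 against Tmc2 in RPKM (both log scales) in each of the 16 libraries; circles are P0, squares P5, blue DMSO, red DAPT, filled symbols GFP+ and open symbols GFP-. The 4 P0 GFP+ libraries lie below the dashed line of equal levels and the 4 P5 GFP+ libraries above it.

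In the GFP- fraction most of the genes were low, and none was called with DAPT. Over the 8 GFP- libraries Tmc2 ranged from 0.0894 to 0.403 CPM, Ush1g from 0.0499 to 0.262, Lhfpl5 from 0.0548 to 1.39 and Tmc1 from 1.04 to 2.24 CPM. Cdh23 ranged from 3.33 to 11.9 CPM, Pcdh15 from 5.23 to 13.8, Tmie from 5.56 to 14.3, Cib2 from 9.07 to 16.9 and Ush1c from 23.2 to 40.9 CPM. In RPKM, Ush1c and Cib2 were the most abundant of the 9 genes there. DAPT called none of the 8 genes tested at either age (edgeR, 0% of 17357 genes at P0 and 0% of 17286 at P5), and Ush1g was too low to be tested. At an unadjusted p under 0.05 there was 1 of the 8 genes at each age (614 genes in all at P0 and 342 at P5), Pcdh15, at 7.49 and 5.23 CPM in P0 DMSO and 13.8 and 13.8 CPM in P0 DAPT. DESeq2 called 0 of these genes at both ages, and 27 genes in all at P0 and 8 at P5. Age called none of them in GFP- cells either (edgeR, 0% of 17423 genes). At an unadjusted p under 0.05 there was 0 of these genes and 135 genes in all, and DESeq2 called 0 of them and 1 gene in all.

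Several defining hair cell markers were near 0 in the GFP- fraction. Of 14 hair cell markers 8 stayed under 3 CPM in all 8 GFP- libraries, with Atoh1 from 0 to 0.615 CPM and Pou4f3 from 0.164 to 1.12 CPM, while Myo6 was at 234 to 384 CPM. By contrast Lfng, whose regulatory sequence drives the transgene, was at 178 to 833 CPM in GFP+ and at 5.46 to 22.4 CPM in GFP- libraries. The summed hair cell markers of the P0 DAPT GFP+ libraries, 2769 and 2496 CPM, exceeded those of every GFP- library (353 to 440 CPM). These sums largely follow Myo6, whose mean was 1600 CPM in P0 DAPT GFP+ cells. In P0 DAPT, 11 of the 14 markers were called higher in GFP+ cells and 2 lower. The shares of all 19241 genes were 25.5% and 24%. Slc17a8 was at 19.7 to 59.7 CPM in GFP- and 2.39 to 11.1 CPM in GFP+ libraries, and Calb2 reached 74.8 and 12.5 CPM. Neuron markers in the P0 DMSO GFP- libraries summed to 258 and 9.89 CPM, and their part in the comparisons of fractions was not tested.

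GFP+ cells held more of most of these transcripts than GFP- cells. In P0 DMSO 5 of the 9 genes were called higher (Pcdh15, Tmc2, Tmie, Ush1c and Ush1g), beside 25.5% of 21779 genes (40.9% in either direction), and with DAPT all 9 were, beside 25.5% of 19241 (49.6% in either direction). At P5 it was 7 of 9 in DMSO (all but Cib2 and Tmie; 18.4% of 19008 genes higher, 33.9% in either direction) and 6 of 9 in DAPT (not Cib2, Tmie or Ush1g; 19.8% of 19338 higher, 36.2% in either direction). None was called lower. These comparisons share libraries with those of DAPT and of age, and each is given by its own values.

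In P0 DMSO the log2 fold changes of GFP+ over GFP- were 5.06 ± 0.66 for Tmc2, 4.05 ± 0.68 for Ush1g, 3.14 ± 0.30 for Pcdh15, 2.28 ± 0.38 for Tmie and 2.08 ± 0.24 for Ush1c. Those of Cdh23 (1.30 ± 0.71) and Lhfpl5 (3.07 ± 1.37) were not called, and no gene was called without either GFP+ replicate. Tmc1 (2.60 ± 0.59, edgeR adjusted p = 0.0105) and Cib2 (0.26 ± 0.54) were not called either. Tmc1 was called with DESeq2 size factors, without the filter, by DESeq2 and with all 8 groups in the fit. With the replicate block Lhfpl5 was called (edgeR adjusted p = 0.00965) and Ush1g was not (0.0152). With P0 DAPT the values ran from 2.62 ± 0.13 for Cib2 to 6.19 ± 0.26 for Lhfpl5 and 6.95 ± 0.44 for Ush1g, and all 9 calls held without each library in turn. Ush1g had 3 and 6 reads in the P0 DAPT GFP- libraries, so that its fold rests on few reads. At P5 Tmc1 had a value of 4.44 ± 0.29 in DMSO, above that of the other 8 genes, and of 4.32 ± 0.28 in DAPT, equal to that of Tmc2 (4.32 ± 0.76), and Pcdh15 was 4.04 ± 0.23 and 4.14 ± 0.22. Tmie was on the other side at P5, at -0.77 ± 0.38 in DMSO and -0.53 ± 0.43 in DAPT, neither called. In DMSO at P5, 4 genes were called without either GFP- replicate, and in DAPT 2 were without GFP- replicate 2.

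**Figure D4:**
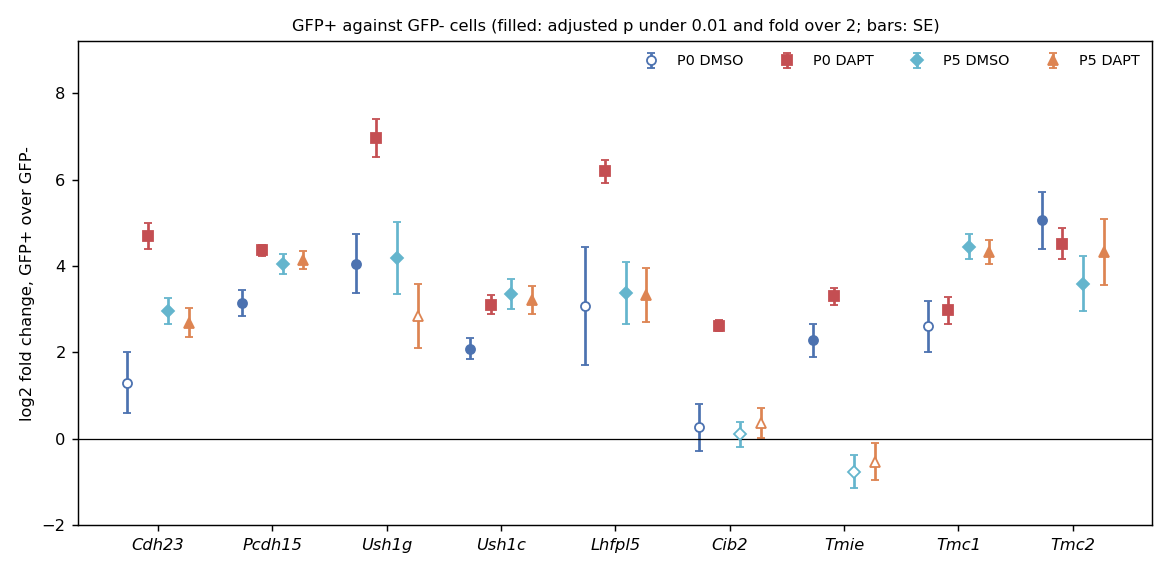
Log2 fold change of GFP+ over GFP- cells for each gene under the 4 conditions; bars are SE and filled symbols mark genes called. All 9 P0 DAPT symbols are filled, from 2.62 (Cib2) to 6.95 (Ush1g), and Cib2 and Tmie lie near or under 0 at P5.

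By level per length, Ush1c came first in P0 DMSO GFP+ cells (34.0 ± 7.6 RPKM, mean ± SD, n = 2), and Ush1g last (0.353 ± 0.088 RPKM). Between them Tmie, Cib2, Lhfpl5, Tmc2 and Pcdh15 followed from 9.65 down to 2.37 RPKM, with neighbours that overlapped. After DAPT at P0, Ush1c (62.7 ± 16.5 RPKM) and Cib2 (59.9 ± 5.5 RPKM) overlapped at the top and Lhfpl5 followed with 47.4 ± 8.2 RPKM. Tmc2 (2.53 ± 0.21 RPKM) and Tmc1 (2.11 ± 0.28 RPKM) came last. The pore genes were therefore at the bottom of the order in the group in which the tip link genes and most of the channel partners were at their highest. In P5 DMSO GFP+ cells Ush1c led with 77.1 ± 20.3 RPKM, and Cib2 (8.13 ± 0.02 RPKM), Tmc1 (6.50 ± 0.67 RPKM) and Pcdh15 (5.32 ± 1.06 RPKM) followed, the last 2 overlapping.

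Other genes of the bundle also rose with DAPT in P0 GFP+ cells. Of 9 further transduction and tip link genes, 8 were tested and 5 rose. The largest log2 fold changes were those of Pdzd7 (3.87), Myo7a (3.81, the myosin that carries and anchors tip link proteins) and Clrn1 (3.43, clarin 1, an Usher syndrome gene). Pdzd7 encodes a scaffold of stereocilia links other than the tip link. Among 26 genes of the stereocilia core and its length 13 rose and none fell, with Myo15 at 4.22, Grxcr1 at 4.18 and Myo3a at 4.05. All of these are edgeR calls at an adjusted p under 0.01, beside 4.2% of all 20711 genes tested that were called higher. The count of the stereocilia core genes ranged from 9 to 14 when each library was left out, and that of the further transduction genes from 4 to 5.

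Cell type markers moved in the same comparison. Of the hair cell markers 10 of 14 rose, led by Pou4f3 (5.60), Barhl1 (5.57) and Atoh1 (5.19), transcription factors of the hair cell lineage, and of the supporting cell markers 5 of 10 fell, led by Hes5 (-8.18), Heyl (-4.46) and Ttyh1 (-3.08). Hes5 and Heyl are targets of Notch signalling. In this comparison 4.2% of all 20711 genes tested were called higher and 4.17% lower. Among the hair cell markers, Myo7a is also on the list of further transduction genes and Myo6 on that of the stereocilia core. The summed hair cell markers were 454 and 319 CPM in P0 DMSO GFP+, 2769 and 2496 in P0 DAPT GFP+, 523 and 524 in P5 DMSO GFP+ and 686 and 708 CPM in P5 DAPT GFP+ libraries. Myo6 alone had means of 301, 1600, 316 and 429 CPM in the same groups, so these sums largely follow 1 gene. The part of the cell type markers in the levels of the 9 genes was not tested. Neuron markers rose for 2 of 5 genes, a count that ranged from 0 to 2 over the alternative settings and from 2 to 3 with each library left out. At P5 no gene of any of these lists was called by edgeR, while up to 5 supporting cell markers and 1 hair cell marker were under an alternative setting. The P5 log2 differences were -5.39 ± 1.06 for Hes5, -1.91 ± 0.20 for Heyl and -1.62 ± 0.17 for Ttyh1. They were 3.51 ± 0.85 for Atoh1, 1.80 ± 0.71 for Barhl1 and 0.54 ± 0.45 for Pou4f3. For each of these genes the DAPT and DMSO libraries did not overlap. Other hair cell markers went the other way, with Lhx3 at -0.54 ± 0.55, Chrna10 at -0.06 ± 0.28 and Slc17a8 at -0.04 ± 0.60, each with overlap. The median P5 log2 difference was 0.44 for the 14 hair cell markers and -0.91 for the 10 supporting cell markers. The paper lists Hes5 and Ttyh1 as changed at P5.

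**Figure D5:**
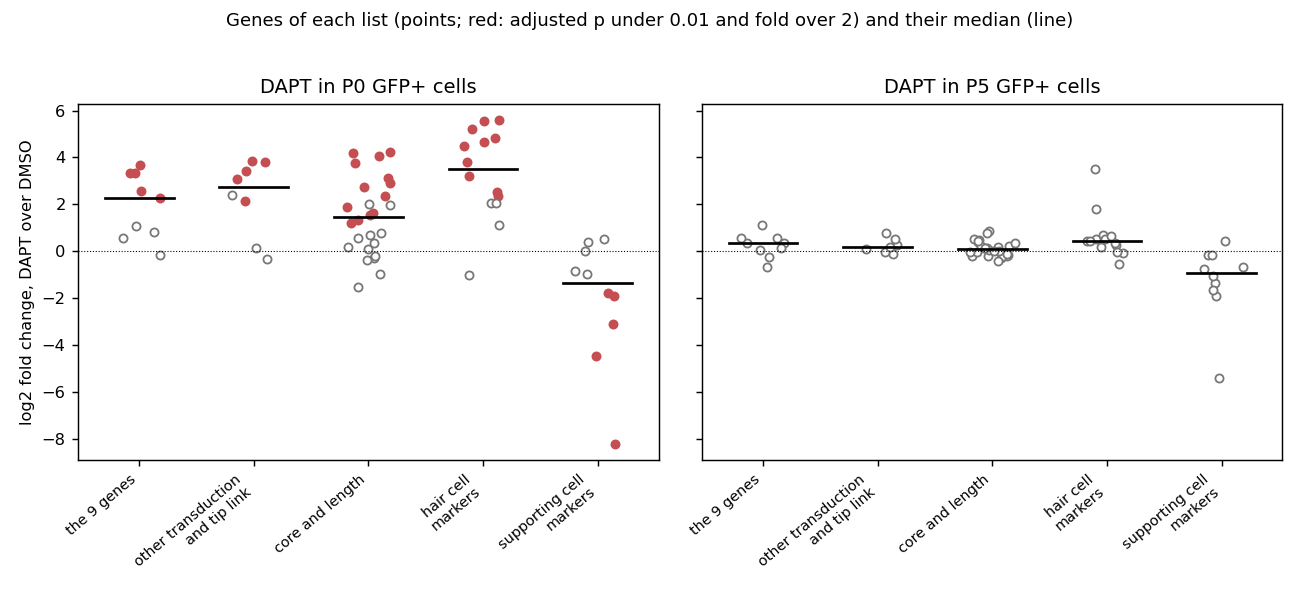
Log2 fold change of DAPT over DMSO in P0 (left) and P5 (right) GFP+ cells for the genes of each list; each point is a gene, red points are called, and the line is the median of the list. At P0 the medians lie at 2.28 for the 9 genes and 3.51 for hair cell markers, and at P5 no point is red.

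By likeness of profile over the 8 groups (the root mean square difference of centred log2(CPM + 1) group means, among 11752 genes or 11753 for Tmc2), Cdh23 was nearest to D930020B18Rik (0.20), Clrn1 (0.29) and Sgpp2 (0.31), and Lhfpl5 was its nearest among the 9, with 0.44. Nearest to Pcdh15 were Sh2d4b (0.30), Otof (0.32) and Camta1 (0.33). For Ush1c they were Strbp (0.11), Atxn1 (0.13) and Glt28d2 (0.17), and for Ush1g Palm3 (0.20), Mogat1 (0.23) and Trim62 (0.24). Smaller values mean more similar profiles, so Ush1c had the closest matches of the 9 genes. Cib2 was nearest to Tmem120b (0.17), Myo6 (0.20) and Efna5 (0.22), Lhfpl5 to Mfng (0.24), Cacnb2 (0.28) and Dscaml1 (0.28), and Tmie to Cdh3 (0.31), Hrk (0.32) and Syt17 (0.40). Of the pore genes, Tmc1 was nearest to Olfr1508 (0.20), Cpeb4 (0.23) and Fam40b (0.23), and Tmc2 to 9130219A07Rik (0.15), Dach2 (0.19) and Zswim5 (0.23).

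The genes lie apart in the genome. In NCBIM37 Cdh23 spans chr10:59765496-60159238 and Pcdh15 chr10:72562090-74112482, with 16939 and 21940 bases of exons. The channel genes are Tmc1 at chr19:20857948-21028692, Tmc2 at chr2:130020930-130090181, Lhfpl5 at chr17:28712663-28720538, Tmie at chr9:110768215-110782617 and Cib2 at chr9:54392601-54408025, and the scaffold genes are Ush1c at chr7:53450720-53493873 and Ush1g at chr11:115176506-115183355. Tmie shares 244 exonic bases (8.71%) with Als2cl and Cib2 shares 227 (15.8%) with Sh2d7, both on the opposite strand. Since the kit does not mark strand, the strand of reads from these shared bases is not known. Whether such reads were counted for a gene or left among the records not assigned to a single gene is not known either, as the counting settings are not given. No 50-base word was shared between the 9 genes, and 28 words of Tmc2 (0.884%) were shared with other genes.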

How the data were processed

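RNA of 16 libraries was measured by paired-end sequencing after mRNA enrichment, and the authors describe an added amplification for samples of few cells. The authors aligned reads with TopHat (version 1.4.0 in the submitters' processing notes, which also name HTSeq, DESeq 1.9.2 and mm9) and deposited counts per Ensembl gene, a library per table; the settings of the counting are not given in the sources used here. The 5 closing lines, for records not assigned to a single gene, entered no test. They took 58.4 to 67.4% of the records in GFP+ libraries and 17.0 to 24.3% in GFP- libraries. Groups came from the sample titles.

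Counts as deposited were filtered with filterByExpr (minimum count 10, minimum total 15), normalised by TMM and tested with glmQLFit and glmQLFTest of edgeR 4.0.16 (R 4.3.3), with Benjamini-Hochberg adjustment over all genes and only the compared groups in a fit. SE is the size of the log2 fold change divided by the square root of F. CPM used TMM factors of all 16 libraries over 24731 genes, and RPKM used exonic lengths of GENCODE M1 (NCBIM37).

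All 9 members were reported whether or not called, with the 3 genes of the largest change among those called in each other list and the 3 most similar profiles. The members and lists were chosen with earlier results of these data known; of 10 further transduction genes listed, 9 were matched. A further list of stereocilia link genes is not reported here. Marker lists of glia, mesenchyme, endothelium, macrophages and stria gave 0 calls in P0 GFP+ cells with DAPT. The procedure was checked on simulated counts with known changes, and it recovered far fewer of them with the spread of the P5 GFP+ groups or of the P0 DMSO fractions than with that of the P0 GFP+ groups. Alternatives were DESeq2 1.42.0 size factors or its Wald test, no filter, all 8 groups, a replicate block, protein-coding genes only, an adjusted p limit of 0.05 and leaving out each library.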

Additional observations from a re-analysis of the deposited data

Results flagged for a closer look

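The response of Cdh23 to DAPT differed between P0 and P5 GFP+ cells by -3.94 on the log2 scale in the interaction test of edgeR (adjusted p = 0.00941). This call was lost in 5 of the 8 fits that left out a library and with all 8 groups in the fit, with adjusted p up to 0.0216, while the difference stayed between -5.13 and -3.31. Both P0 DAPT libraries were above both P0 DMSO libraries (233 and 198 against 25.3 and 7.28 CPM), while the P5 DAPT libraries (27.4 and 21.4 CPM) overlapped with the P5 DMSO libraries (24.7 and 33.2 CPM).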

How the results depend on the processing

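Of 1092 recomputed values of single genes 974 kept their sign and their side of the limits, 42 passed only under the alternative, 40 no longer passed and 36 changed sign, each of them a difference that had not been called. Of the 9 genes, the response of P0 GFP+ cells gave 4 to 6 calls under the alternatives and 5 to 6 with each library left out, and the responses of P5 GFP+ cells and of GFP- cells gave 0 throughout. In the interaction the count was 5 without the filter, 4 by DESeq2 and 3 at an adjusted p limit of 0.05, and 0 to 2 with each library left out. With age in GFP+ cells it was 5 without the filter, 4 by DESeq2, 4 at the limit of 0.05 and 1 to 4 with each library left out. Between fractions the leave-one-out counts were 0 to 6 in P0 DMSO, 9 in P0 DAPT, 4 to 7 in P5 DMSO and 2 to 6 in P5 DAPT. The cause was not tested.

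Replicate numbers are shared between groups, but nothing says that a number marks a shared culture. Deviations of same-numbered libraries correlated from 0.108 to 0.726 between GFP- groups, from -0.251 to 0.143 between GFP+ groups and from -0.144 to 0.195 between fractions. With the replicate number as a block, 6 genes were called for DAPT in P0 GFP+ cells, 4 between the P5 DMSO fractions and 4 with age in GFP+ cells, and the counts of the other comparisons were those reported. Between the P0 DMSO fractions the block kept the count at 5, with Lhfpl5 called and Ush1g not.

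Scaling with DESeq2 size factors, protein-coding genes alone or all 8 groups moved the median of all genes by over 0.1 on the log2 scale only between fractions (shifts from -0.143 to 0.157). Cib2 between the P5 DMSO fractions turned to -0.0763 without the filter and to -0.04 with all 8 groups. Leaving out a library also turned the sign (range over the libraries left out) of Tmc2 (-0.52 to 0.39) with DAPT in P0 GFP+ cells, of Tmie (-0.0475 to 0.38) and Ush1c (-0.37 to 0.39) with DAPT in P5 GFP+ cells and of Tmc1 (-0.81 to 0.19) and Tmc2 (-0.0372 to 0.94) in the interaction. It also turned the sign of Cdh23 (-0.19 to 1.12), Lhfpl5 (-0.66 to 3.89), Tmie (-0.0465 to 0.21), Ush1c (-0.35 to 0.0585) and Cib2 (-0.0659 to 0.70) with DAPT in P0 GFP- cells, of Cdh23 (-0.32 to 0.31), Tmc2 (-1.42 to 0.25), Tmie (-0.71 to 0.36) and Ush1c (-0.10 to 0.62) with DAPT in P5 GFP- cells and of Cib2 (-0.64 to 0.78) between the P0 DMSO fractions. It also turned the sign of Cib2 (-0.14 to 0.29) between the P5 DMSO fractions, of Tmie (-1.01 to 0.0234) and Cib2 (-0.10 to 0.67) between the P5 DAPT fractions and of Lhfpl5 (-1.48 to 0.74) and Cib2 (-0.83 to 0.58) with age in GFP+ cells. It also turned the sign of Tmc2 (-0.60 to 0.12), Lhfpl5 (-1.96 to 2.63), Ush1c (-0.51 to 0.21) and Cib2 (-0.44 to 0.36) with age in GFP- cells. Depth limits Ush1g, Tmc2 and Lhfpl5 in GFP- cells, where single libraries held as few as 2 to 4 reads, and 2 replicates a group limit every comparison.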
